A study of Mus musculus with 13 samples.

Results

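The Myc family loci are the genes Myc, Mycn and Mycl and the long non-coding RNA gene Pvt1, which lies next to Myc. H3K27ac, acetylation of lysine 27 of histone H3, marks active promoters and enhancers, and its peaks were read here from ChIP-seq peak lists of 9 mouse melanoma cell lines. Each locus was taken as the gene body in the mm10 (GRCm38) build with 200 kb on each side. Overlapping or adjoining peaks of the 9 lists were joined into 59668 regions, and the 87 of these that met the 4 windows are called elements. The windows of Myc and Pvt1 overlap and share 69 elements, whereas the Mycn window held 6 and the Mycl window held 12.

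All lines were established from melanomas of mice with the Tyr::NRAS Q61K transgene, in which the tyrosinase promoter drives oncogenic NRAS in pigment cells, on a Cdkn2a+/- and Cdh1 F/F background. In the ΔEcad lines the Tyr::CreA transgene had deleted Cdh1, the gene of E-cadherin, in pigment-cell precursors and their progeny, and the Ecad lines had no Cre and an intact gene. The lines were male Ecad (Ma_1007 and Ma_1181), female Ecad (Ma_1014 and Ma_1039), male ΔEcad (Ma_1062 and Ma_1456) and female ΔEcad (Ma_1057, Ma_1064 and Ma_1069). Ages of the mice were not used here, and the cells were grown in F12 medium with serum without further treatment. Each line gave 1 list, so the line was the replicate, and p-values measure the spread between these lines. Whether any lines shared a mouse is not stated in the sources used here. The read depth behind each list is unknown, as the study's methods state only a target that all samples shared.

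MYC proteins are transcription factors that bind E-box DNA together with their partner MAX and drive genes of ribosome production, metabolism and cell division. Myc is used in most dividing cells, Mycn mainly in embryonic and neural tissue, and Mycl in a narrower set of tissues. Myc is known to be controlled by enhancers spread over the large gene-poor region around it, and the Pvt1 gene body holds many of them. In melanocytes and melanoma, MYC is known for promoting growth and for opposing senescence driven by oncogenic RAS.

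H3K27ac peaks stood at the starts of Myc and Pvt1 in every line, and none was called at the starts of Mycn and Mycl. Peaks lay within 1 kb of a transcription start site (TSS) of Myc and of Pvt1 in 9 of 9 lists and within 1 kb of a TSS of Mycn and of Mycl in 0 of 9. Over 21756 genes, 21.2% of promoters were called in all 9 lists and 46.7% in 0 lists. A missing call is a promoter without a peak past the threshold of the list and does not show that the mark was absent.

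The 2 promoters without a called peak are printed below with the strongest summits of the 2 elements that most lists shared around Mycn, since at that locus the peaks called most often lay at these distant sites. Promoters are RefSeq windows of 300 bases around the start (GRCm38.p6), and the element windows are 300 bases of the plus strand of the same build centred on the summit. Capitals mark matches to any of 5 consensus motifs searched on both strands, which were CACGTG (E-box, bound by MYC and MAX), CTTTGAA or CTTTGAT (TCF/LEF), TGACTCA (AP-1), TCACGTGA or TCATGTGA (M-box, bound by MITF) and GGAATG (TEAD). The M-box form TCACGTGA contains the E-box.
Mycn promoter, chr12:12941787-12942086, minus strand: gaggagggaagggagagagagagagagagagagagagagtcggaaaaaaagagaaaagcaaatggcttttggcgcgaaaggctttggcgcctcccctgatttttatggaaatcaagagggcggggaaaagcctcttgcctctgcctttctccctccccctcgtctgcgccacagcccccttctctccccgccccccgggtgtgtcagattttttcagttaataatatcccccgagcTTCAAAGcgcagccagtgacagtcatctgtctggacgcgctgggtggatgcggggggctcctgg
Mycl promoter, chr4:122995681-122995980, plus strand: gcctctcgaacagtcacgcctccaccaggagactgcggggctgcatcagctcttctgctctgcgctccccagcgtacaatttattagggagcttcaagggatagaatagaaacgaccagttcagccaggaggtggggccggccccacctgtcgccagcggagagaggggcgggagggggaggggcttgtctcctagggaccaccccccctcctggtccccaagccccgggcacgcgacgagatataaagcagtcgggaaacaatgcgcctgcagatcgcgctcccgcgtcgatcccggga
Mycn +128 kb element, chr12:12810251-12810550, plus strand: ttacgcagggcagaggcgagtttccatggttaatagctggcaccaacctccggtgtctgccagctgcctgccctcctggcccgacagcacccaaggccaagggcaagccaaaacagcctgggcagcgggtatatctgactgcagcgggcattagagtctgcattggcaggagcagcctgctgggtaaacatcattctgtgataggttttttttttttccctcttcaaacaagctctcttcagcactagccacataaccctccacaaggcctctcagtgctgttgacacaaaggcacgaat
Mycn -83.5 kb element, chr12:13026286-13026585, plus strand: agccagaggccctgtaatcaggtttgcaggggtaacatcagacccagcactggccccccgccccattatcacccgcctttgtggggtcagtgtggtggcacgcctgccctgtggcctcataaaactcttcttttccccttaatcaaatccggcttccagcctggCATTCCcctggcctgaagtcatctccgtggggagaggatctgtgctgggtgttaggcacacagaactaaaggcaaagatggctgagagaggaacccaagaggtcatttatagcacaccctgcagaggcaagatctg

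The Mycn promoter held 1 match, to TCF/LEF, and the Mycl promoter held none of the 5 motifs, with GC contents of 56.7% and 64% and 14 and 22 CpG dinucleotides. Of 32851 RefSeq promoters of the same length, 8.65% held the TCF/LEF letters and 7.15% the E-box. The Mycn -83.5 kb element held 1 TEAD match. Over the 87 summit windows, 17 (19.5%) held TEAD, 14 (16.1%) TCF/LEF and 8 (9.20%) AP-1, and 0 held the E-box or the M-box. The same windows of all 59644 regions on assembled chromosomes held these letters in 15.4%, 11.9%, 5.55%, 3.72% and 1.91% of cases, in the order TEAD, TCF/LEF, AP-1, E-box and M-box. A match is a string of letters and not a bound site, and these shares were not tested.

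The covered length, which is the number of kb inside peaks, ordered the loci in the same way in 9 of 9 lines, with Myc above Mycl and Mycl above Mycn. Myc (ENSMUSG00000022346.15) lies at chr15:61985391-61990374 on the plus strand, and its 405-kb window was covered for 60.0 kb in Ma_1007, 27.1 kb in Ma_1181, 37.5 kb in Ma_1014 and 40.6 kb in Ma_1039 among Ecad lines. Among ΔEcad lines the Myc window was covered for 32.1 kb in Ma_1062, 44.8 kb in Ma_1456, 97.5 kb in Ma_1057, 39.3 kb in Ma_1064 and 25.0 kb in Ma_1069. The groups overlapped, and Ma_1057 stood above every other line.

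Pvt1 (ENSMUSG00000097039.8), annotated as a lincRNA at chr15:62037986-62378096 on the plus strand, has a 740-kb window that holds Myc too. It was covered for 89.0, 27.4, 44.3 and 44.8 kb in the Ecad lines in the order given above, and for 37.3, 55.9, 125, 44.9 and 27.6 kb in the ΔEcad lines. As at Myc, Ma_1057 was highest, followed by Ma_1007, whose list was the longest of the 9.

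At Mycn (ENSMUSG00000037169.15, chr12:12936093-12941914, minus strand) the covered length was 2.70, 4.17, 5.64 and 0.792 kb in the Ecad lines. In the ΔEcad lines it was 1.16, 6.54, 1.70, 6.23 and 1.75 kb. Both groups ran over nearly the same range, and the Mycn window ranked between the 9.36th and the 38.7th percentile of all gene windows of its list.

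At Mycl (ENSMUSG00000028654.13, chr4:122995652-123002485, plus strand) the covered length was 11.9, 5.53, 7.48 and 11.8 kb in the Ecad lines. It was 14.7, 21.3, 6.84, 13.6 and 3.20 kb in the ΔEcad lines. The male ΔEcad line Ma_1456 was highest, and Ma_1062, at 14.7 kb, was close to the female ΔEcad line Ma_1064, at 13.6 kb. The female ΔEcad lines spread over most of the range. Male ΔEcad lines were not tested against the rest, and how often they are highest over all gene windows was not counted.

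**Figure D1:**
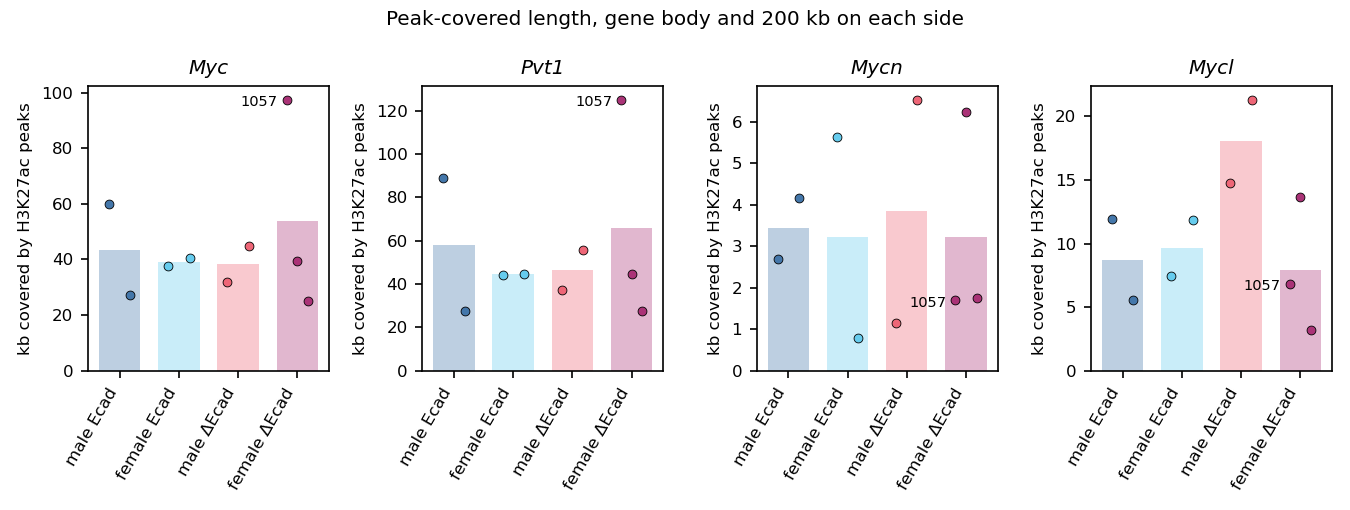
Covered length in kb (vertical axes, each from 0) at the windows of Myc, Pvt1, Mycn and Mycl in the 4 groups, with 1 point per line and bars at the group means. Line Ma_1057 is labelled and lies at 97.5 kb at Myc and 125 kb at Pvt1, above the other 8 lines, but not at Mycn or Mycl.

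The question of the design was whether loss of E-cadherin, sex or both went with a change of active chromatin. By genotype, the Myc window was covered for 47.7 ± 28.8 kb (SD, n = 5) in ΔEcad and 41.3 ± 13.8 kb (SD, n = 4) in Ecad lines, a difference of 6.43 kb (exact two-sided permutation test, P = 0.825). The difference by genotype was 6.80 kb at Pvt1 (exact P = 0.738), 0.151 kb at Mycn (exact P = 0.944) and 2.77 kb at Mycl (exact P = 0.5). Of the 4 windows 0 had an exact P under 0.05, while 19.9% of 20387 gene windows did, 4050 with less and 17 with more cover in ΔEcad lines. The median difference over all windows was -2.80 kb. These lengths were not scaled to the length of the lists. The lists of ΔEcad lines held 29.5 to 48.3 Mb of cover in all, and those of Ecad lines 40.7 to 67.2 Mb. The part of list length in these counts was not tested.

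By sex, the difference between the 5 female and 4 male lines was 7.01 kb at Myc (exact P = 0.786), 4.93 kb at Pvt1 (exact P = 0.857), -0.417 kb at Mycn (exact P = 0.817) and -4.77 kb at Mycl (exact P = 0.246). Here 8.06% of all gene windows and 0 of the 4 had an exact permutation P under 0.05. The female ΔEcad lines differed from the other 6 lines by 13.6 kb at Myc (exact P = 0.524), 16.1 kb at Pvt1 (exact P = 0.571), -0.272 kb at Mycn (exact P = 0.881) and -4.23 kb at Mycl (exact P = 0.298). In that comparison 31.3% of all gene windows passed, 6123 with less and 267 with more cover in female ΔEcad lines, and again 0 of the 4. The lists of female ΔEcad lines held 29.5 to 39.5 Mb of cover and the others 37.1 to 67.2 Mb, and the part of this in the counts was not tested.

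Without Ma_1057 the differences at Myc and Pvt1 turned negative in all 3 comparisons. The genotype difference became -6.01 kb at Myc and -9.96 kb at Pvt1, and that of female ΔEcad lines against the rest became -8.17 and -13.6 kb. The adjusted P of the 4 windows ran from 0.461 to 0.997 over the 3 comparisons, and 0 of all windows passed after adjustment. The smallest exact P that 5 lines against 4 allow is 0.00794, and that of 3 lines against 6 is 0.0119. A difference of the genotype effect between sexes gave exact permutation P from 0.133 at Mycl to 0.933 at Mycn over 60 arrangements.

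The comparison of female ΔEcad lines with the rest changed at Myc when cover was taken per covered Mb of chromosome 15 in the same list. Of 28 values from altered processing of the 4 windows in this comparison, it was the only 1 with an exact permutation P under 0.05. On that scale the Myc window stood at 55.0 kb per Mb in Ma_1057, 19.5 in Ma_1064 and 19.01 in Ma_1069, and at 17.5, 14.6, 13.9, 17.7, 16.4 and 16.9 in Ma_1007, Ma_1181, Ma_1014, Ma_1039, Ma_1062 and Ma_1456. All 3 female ΔEcad lines lay above the other 6, with means of 31.2 ± 20.6 (SD, n = 3) and 16.2 ± 1.59 kb per Mb (SD, n = 6) (exact permutation P = 0.0119, adjusted P = 0.127). On this scale 23.0% of all gene windows had an exact P under 0.05 in either direction, 3220 with less and 1466 with more cover in female ΔEcad lines, and the windows with more cover were 7.19% of all. Without Ma_1057 the difference was 3.08 kb per Mb (exact P = 0.0714). With Ma_1057 and all other lines kept, cover per covered Mb of the whole list gave an exact P of 0.0595. The denominator, the covered length of chromosome 15, was 1.77, 2.02 and 1.32 Mb in Ma_1057, Ma_1064 and Ma_1069 and 1.86 to 3.43 Mb in the others, so it was lowest in Ma_1069 and Ma_1057. Its part in the result was not tested.

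The 69 elements of Myc and Pvt1 lay almost wholly on the Pvt1 side of Myc. Only 2 lay upstream of the Myc TSS, whereas 51 overlapped the Pvt1 gene, and 45 of the 69 lay in introns only, 1 of them in the neighbouring Gm41333 and the others in Pvt1. The joined windows end 200 kb upstream of Myc, but downstream they take in all of Pvt1 and 200 kb beyond it. More sequence was therefore searched downstream. The Myc window alone, with 200 kb on each side of the gene, held 40 elements, and the same 2 lay upstream. All 9 lists shared 6 of the 69 elements, 24 were in 3 or more lists, 11 in 2 lists and 34 in 1 list. Elements are joined regions that a list calls with at least 1 bp. Peaks of different lists in a shared element therefore need not overlap each other. Over all 3 loci, 7 of 87 elements (8.05%) were in all 9 lists and 38 (43.7%) in 1, against 13.7% and 34.0% of all regions.

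The first shared element lay over the start of Myc and most of its gene body (chr15:61983147-61989792), and overlapped exons of Myc and of the predicted transcript Gm37947. Peaks of single lists covered from 1.36 kb of the Myc gene body in Ma_1069 to 4.40 kb in Ma_1062. Strength is given as the percentile of a peak's -log10 q within its own list, since heights are not comparable between lists. Where a list had several peaks in an element, the highest of their percentiles was taken. The Myc promoter element stood at percentile 97.4 in Ma_1007, 92.1 in Ma_1181, 74.7 in Ma_1014 and 87.2 in Ma_1039, and at 97.0 in Ma_1062, 93.7 in Ma_1456, 99.9 in Ma_1057, 87.8 in Ma_1064 and 85.7 in Ma_1069. The 4 male lines were at 92.1 or above and the female lines ran from 74.7 to 99.9, and the means differed by -7.99 points (female minus male, exact P = 0.119).

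A second shared element lay at the start of Pvt1, 52.3 kb downstream of the Myc TSS (chr15:62037659-62047724). Its peaks covered 7146 to 10057 bp and stood at percentile 80.0 in the weakest list, that of Ma_1064, and at 99.9 in Ma_1057. It was therefore a wide and strong domain in every line.

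The other 4 shared elements lay inside Pvt1. The +93.1 kb element (chr15:62078478-62082180), in an intron of Pvt1 and over the small RNA annotation Gm27782, had the highest mean percentile of all Myc and Pvt1 elements, 92.5. Its percentiles were 94.0, 95.8, 95.1 and 96.1 in the Ecad lines and 92.3, 86.6, 99.9, 91.9 and 81.2 in the ΔEcad lines. All 4 Ecad lines lay between 94.0 and 96.1, and 4 of the 5 ΔEcad lines lay below them, with Ma_1057 above (difference -4.86 points, exact P = 0.238).

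The +118 kb element (chr15:62102895-62108967) overlapped an exon of Pvt1, and the +125.9 kb (chr15:62111315-62122793) and +141 kb (chr15:62126435-62141452) elements lay in its introns. Their percentiles ran from 53.9 to 95.8, from 29.9 to 93.9 and from 60.1 to 99.0, each lowest in Ma_1181 and highest in Ma_1057. At these 3 elements the mean percentile of female minus male lines was 13.1, 18.3 and 12.5 points, with exact P of 0.159, 0.135 and 0.151, so none passed the test. A percentile is a rank within lists of unequal length and not a height. The lists also covered unlike parts of these joined regions. Peaks covered 11479 bp of the +125.9 kb element in Ma_1057 and 1445 bp in Ma_1181. At the +141 kb element they covered 14584 bp in Ma_1057 and 2992 bp in Ma_1181.

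Together these 6 elements made up from 41.5% of the covered length of the Pvt1 window in Ma_1057 to 90.7% in Ma_1069, with 46.8% in Ma_1007, the second lowest. In Ma_1069 they were the whole cover of the Myc window, 25.0 kb.

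**Figure D2:**
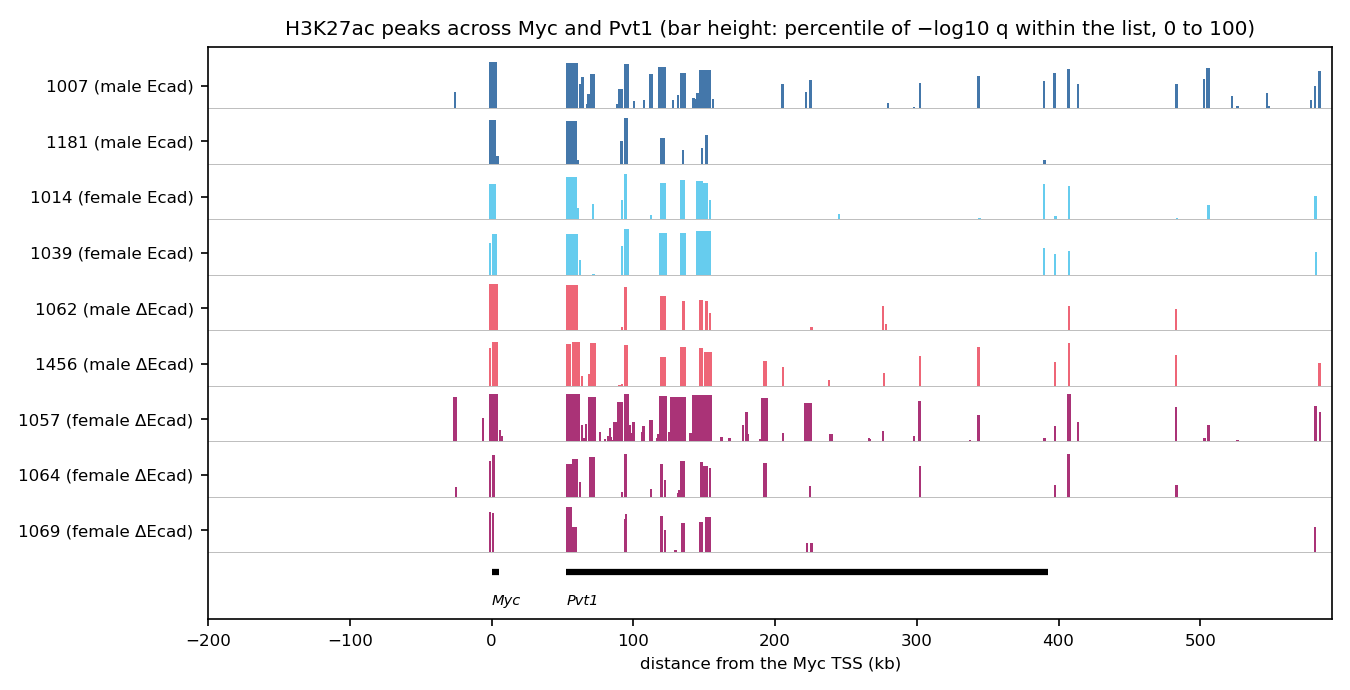
H3K27ac peaks of the 9 lists by distance in kb from the Myc TSS, with bar height the percentile of the -log10 q within the list and gene bodies as black lines; narrow peaks are drawn at a minimum width. All lines share the blocks at Myc, at the start of Pvt1 and between +93.1 and +141 kb. Ma_1057 has the most peaks in between them, followed by Ma_1007.

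Of the 7 elements in all 9 lists, the seventh lay at Mycl and is described with that locus. When the percentile was compared over all 8187 regions in all 9 lists, 0 of the 6 Myc and Pvt1 elements had an exact permutation P under 0.05 in any comparison. The Mycl element had such a P by genotype only. The shares of all these regions that passed were 13.3% by genotype, 8.73% by sex and 21.9% for female ΔEcad lines against the rest, and 0 passed after adjustment.

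Presence and absence differed at 1 element of 87. The +389 kb element (chr15:62374417-62375706), in the last part of the Pvt1 gene and intronic, was in 4 of 4 Ecad lists and 1 of 5 ΔEcad lists, that of Ma_1057 (P = 0.0476 by Fisher's two-sided exact test, adjusted P = 1). Its percentiles were 57.5, 7.16, 74.0 and 57.5 in the Ecad lines and 8.15 in Ma_1057, so the peak was weak in Ma_1181 and Ma_1057. Of all regions 3.66% passed in this comparison, above the 1.15% of the elements. By sex 1.60% of all regions passed, for female ΔEcad lines against the rest 4.46%, and 0 elements in each. The summit window of the +389 kb element held 1 TCF/LEF and 1 AP-1 match. No element was in every line of 1 group and in no other line.

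Beyond the end of Pvt1 the element most often called lay at +406 kb (chr15:62391447-62393908), between genes. It was absent from the lists of Ma_1181 and Ma_1069, and stood at percentile 82.5, 69.8 and 50.4 in the other Ecad lines and at 50.6, 89.9, 99.3 and 91.4 in the other ΔEcad lines. The strongest 3 were ΔEcad lines, with the fourth ΔEcad line among the weakest.

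Line Ma_1057 stood apart at Myc and Pvt1. It called 64 of the 69 elements, against 8 to 35 in the other lines, and 29 of the 34 elements found in 1 list were its own. Elements in its list alone were 45.3% of its Myc and Pvt1 elements but only 2.78% of all its called regions. Ma_1007 had 4 such elements and Ma_1062 had 1. The 6 shared elements were also strongest in Ma_1057, with a mean percentile of 98.1 against 70.5 to 89.3 in the other lines. The 29 elements in the Ma_1057 list alone were weaker, at percentiles from 0.527 to 61.3, and only 1 stood above 48.6. The median percentile of all peaks in the Pvt1 window was 43.3 to 65.0 in the other lines and 22.5 in Ma_1057.

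Its list was not long. It held 34.2 Mb of covered sequence, the second shortest, so per covered Mb of the list the difference was larger. The Myc window took 2.85 kb per covered Mb in Ma_1057 and from 0.664 to 0.994 in the other 8 lines, 3.25 times their median. Only 5 of 20387 gene windows had more cover than Myc in Ma_1057, and only 1 had more than Pvt1, whereas 622 to 2535 windows had more than Myc in the other lists. The Pvt1 window, which holds Myc, was itself among those above Myc in every list. These ranks are of kb not scaled to the length of the window, 405 kb at Myc and 740 kb at Pvt1. With the values of Myc in Ma_1057 taken as limits, which were at least 2.87 times the highest other line and a median of the other lines of at least 0.876 kb per covered Mb, no other gene window met both limits in any of the 9 lists. The Pvt1 window fell short of the first limit, with 3.66 kb per covered Mb in Ma_1057 and 1.33 in the highest other line. The first limit alone was met by 3 windows in Ma_1057 and by 18 to 272 in the other lists, so the count rests on the second limit as well. These limits were set after the values were seen and Myc met them by construction, so they give a description only.

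The dense cover ran on beyond the windows. In 200-kb bins on both sides of the Myc TSS, the first 200 kb downstream was covered for 91.1 kb in Ma_1057 and 23.5 to 56.0 kb in the others. Ma_1057 was highest in 7 of the 11 bins over the first 2.2 Mb downstream, in 1 of the 20 bins over the 4 Mb upstream and in 0 of the 9 bins beyond 2.2 Mb. Per covered Mb of the list, the first 2.2 Mb downstream took 8.60 kb in Ma_1057 and 2.07 to 3.62 kb in the others. The 4 Mb upstream took 4.02 kb in Ma_1057 and 2.14 to 4.24 kb in the others, and the last 1.8 Mb took 0.852 kb against 0.433 to 1.40 kb. The bounds of these stretches were set after the values were seen. Chromosome 15 as a whole held 5.18% of the covered length in Ma_1057 and 4.46% to 5.92% in the other lines. A cause of the dense cover was not tested.

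**Figure D3:**
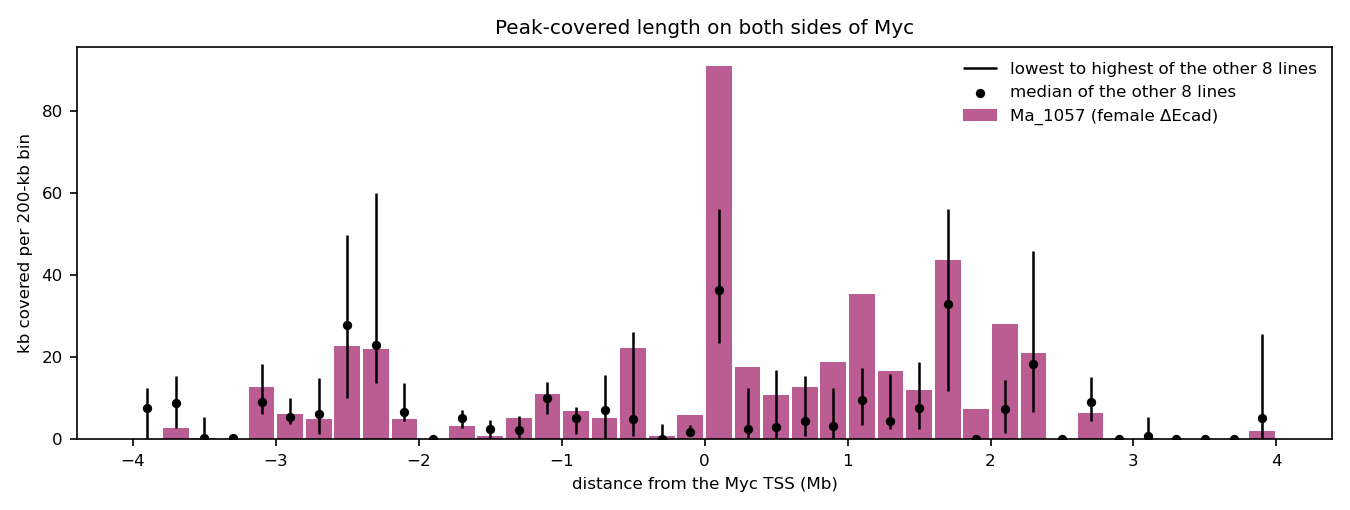
Covered kb per 200-kb bin (vertical axis) by distance in Mb from the Myc TSS, with bars for Ma_1057, black points for the median of the other 8 lines and lines from their lowest to highest value. Ma_1057 lies above that range in 7 of 11 bins between the TSS and 2.2 Mb downstream and in 1 of 20 upstream bins.

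Around Mycn the called peaks lay far from the gene. The Mycn +128 kb element, downstream of the gene and between genes (chr12:12809528-12813750), was called in 8 lists, without Ma_1039, at percentiles from 52.2 in Ma_1062 to 95.1 in Ma_1456. The element at -83.5 kb (chr12:13025457-13027176), also between genes, was called in 8 lists, without Ma_1057, at percentiles from 36.9 in Ma_1069 to 91.4 in Ma_1014. In the 5 ΔEcad lines the latter stood at 46.3, 67.8, no peak, 55.1 and 36.9, and in the Ecad lines at 65.3, 86.5, 91.4 and 73.6. The other 4 Mycn elements were in 3 lists or in 1, and both single-list elements were in Ma_1014. The nearest peak to the Mycn TSS, in Ma_1014 alone, was at -66.4 kb.

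At Mycl the 4 elements called in 8 or 9 lists lay at promoters of its neighbours, and the 7 of 12 that lay over 1 kb from any TSS were in 1 to 6 lists. The element in all 9 lists (chr4:122877907-122887388) lay over the start of Cap1, an actin-binding protein gene, at -108 kb of Mycl. Its percentile was 97.8, 93.4, 97.6 and 98.1 in the Ecad lines and 89.7, 91.6, 93.1, 95.5 and 91.5 in the ΔEcad lines. The 4 Ecad lines averaged 96.7 ± 2.25 (SD, n = 4) and the 5 ΔEcad lines 92.3 ± 2.16 (SD, n = 5), a difference of -4.43 points (exact permutation P = 0.0317, adjusted P = 0.338), and the groups overlapped. Of all 8187 regions in all 9 lists, 13.3% had an exact P under 0.05 in this comparison. Further elements in 8 lists lay at the promoters of Ppt1, a lysosomal enzyme gene, of Trit1, a tRNA-modifying enzyme gene, and of Ppie, a splicing-associated isomerase gene, each absent from Ma_1069, whose list was the shortest. The nearest elements to Mycl were at +20.4 kb, the Trit1 promoter, and at -40.2 kb, in Mfsd2a and only in Ma_1456. An element at +57.1 kb, over the end of Trit1, was in 5 lists. Its percentiles were 15.6 in Ma_1014, 65.9 in Ma_1039, 85.8 in Ma_1062, 76.8 in Ma_1456 and 27.9 in Ma_1064. It was named after these values were seen, and they were not tested by group. The other 6 Mycl elements were in 1 to 6 lists, and none of the 12 passed Fisher's test.

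**Figure D4:**
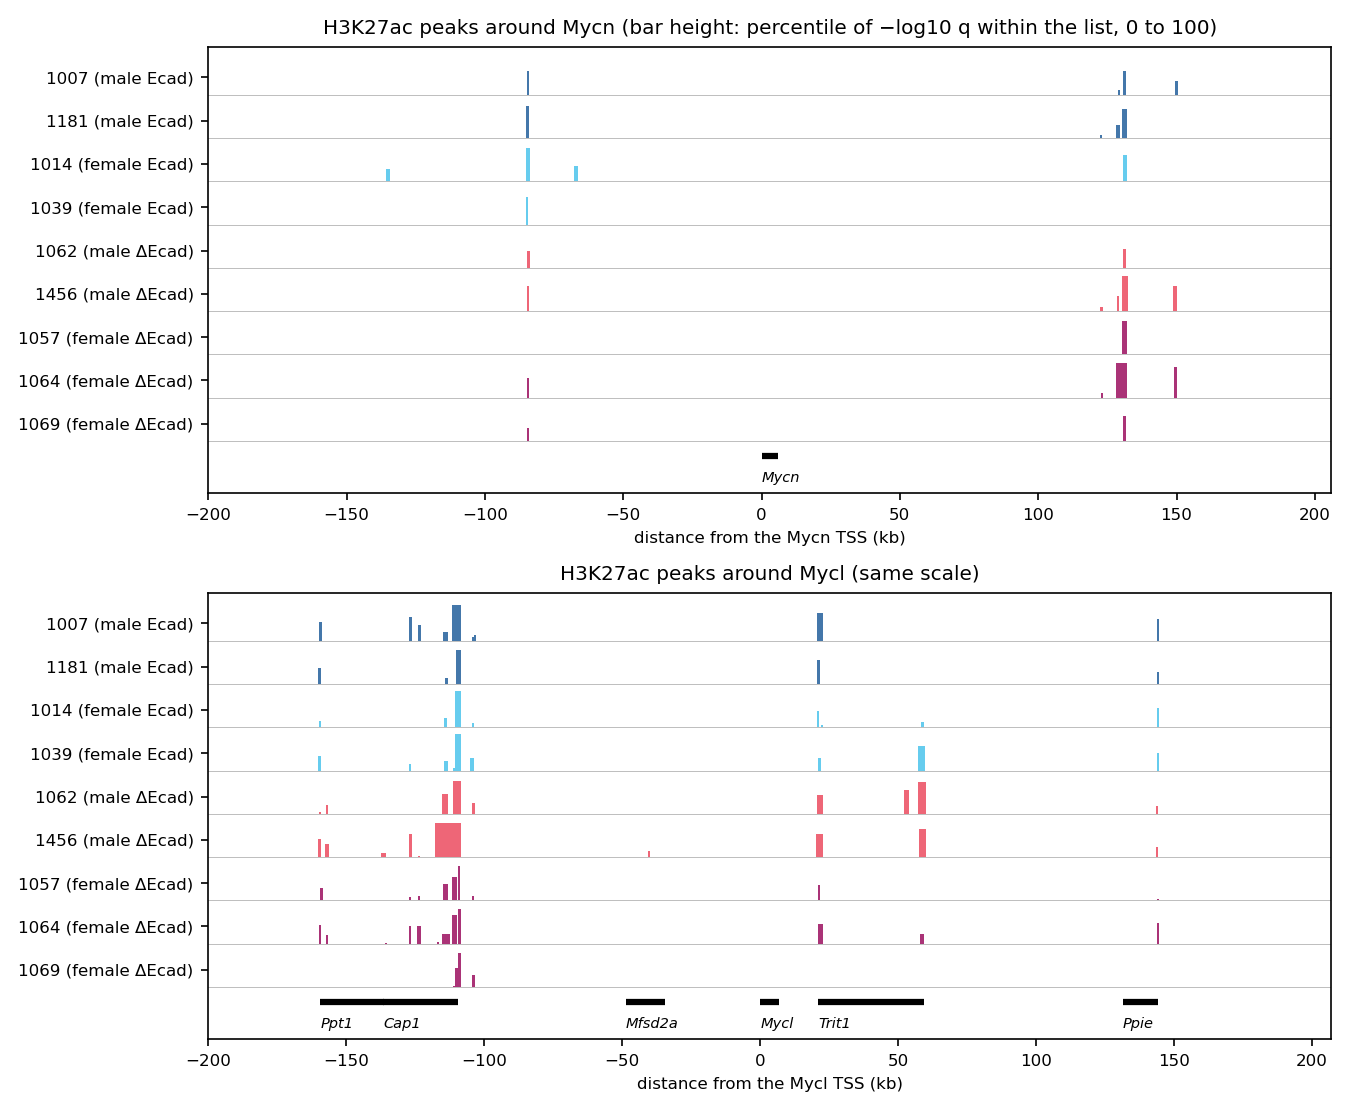
H3K27ac peaks of the 9 lists by distance in kb from the TSS of Mycn (top) and Mycl (bottom), drawn in the direction of each gene, with bar height the percentile of the -log10 q within the list and gene bodies as black lines; narrow peaks are drawn at a minimum width. Neither gene has a peak at its start in any line, and the peaks called in 8 or 9 lists lie at +128 and -83.5 kb of Mycn and at promoters of the neighbours of Mycl.

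Among the gene windows elsewhere whose share of the list was most like that of Myc over the 9 lines were those of Gm5538 (Pearson r = 0.984) and Chrm3 (r = 0.928), a muscarinic receptor gene. Without Ma_1057 these r values fell to 0.554 and 0.443, so the likeness rested on that line. For Mycn they included Lexm (0.909) and Ttc22 (0.881), and for Mycl they were Fxyd4 (0.984), Rasgef1a (0.983) and Slc28a1 (0.958). Without the line highest at the member these were 0.929 and 0.908, and 0.978, 0.974 and 0.942. The points share library and list length, windows of neighbouring genes overlap, and these genes were picked for their r from 19118 to 19766 genes on other chromosomes.

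Promoter calls of 30 genes that act with, on or under MYC were read in the same lists, and 17 of them (56.7%) were called in all 9, against 21.2% of all 21756 promoters. The genes were chosen with earlier results of these data known. The difference between the shares was not tested and is no measure of MYC activity. Of the MYC network, Max, the obligate partner of all MYC proteins, Mnt, a repressor that competes for MAX, and Mlx and Mlxip of the parallel MLX branch were called in 9 lists. Mlxipl, a glucose-responsive factor, was called in 0. The repressors of the MXD group varied, with Mxd4 and Mxi1 in 8 lists, Mxd1 in 7 and Mxd3 in 6, and Mga, another MAX partner, was in 7. Mxd3 was in 6 of 6 lists outside female ΔEcad and in 0 of 3 female ΔEcad lists (Fisher's exact P = 0.0119, adjusted P = 0.482).

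Among genes that set the turnover of MYC protein, Aurka and Huwe1 were called in all 9 lists. Fbxw7, the ubiquitin ligase subunit that recognises phosphorylated MYC, was in 6 of 6 other lists and 0 of 3 female ΔEcad lists (Fisher's exact P = 0.0119, adjusted P = 0.482). Usp28, a deubiquitinase, was in 8 lists, Skp2 in 7 and Usp7 in 2. Fisher P was under 0.05 for 0 of these 30 genes by sex (1.62% of all promoters) and for 2 in female ΔEcad lines against the rest (6.67%, against 4.50%). By genotype it was under 0.05 for 3.03% of all promoters, and the count over the MYC lists is not given here. After adjustment over all promoters 0 of them passed.

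Of the 14 genes of the MYC target list, 11 were called in all 9 lists, where 21.2% of all promoters were, among them Odc1 of polyamine synthesis, the nucleolar genes Ncl, Npm1, Fbl and Nop56, and the cyclin gene Ccnd2. This list was chosen in the same way, and its share was not tested. Pcna, a replication clamp gene, was in 7 lists and Cad, of pyrimidine synthesis, in 3, and Tert, the telomerase gene, was in 0. Fewer promoters were called in the female ΔEcad lists in general, 25.5% to 33.6% of all genes against 38.7% to 49.0% in the other 6 lists, which moves with the missing calls of Mxd3 and Fbxw7. Its part in those calls was not tested.

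**Figure D5:**
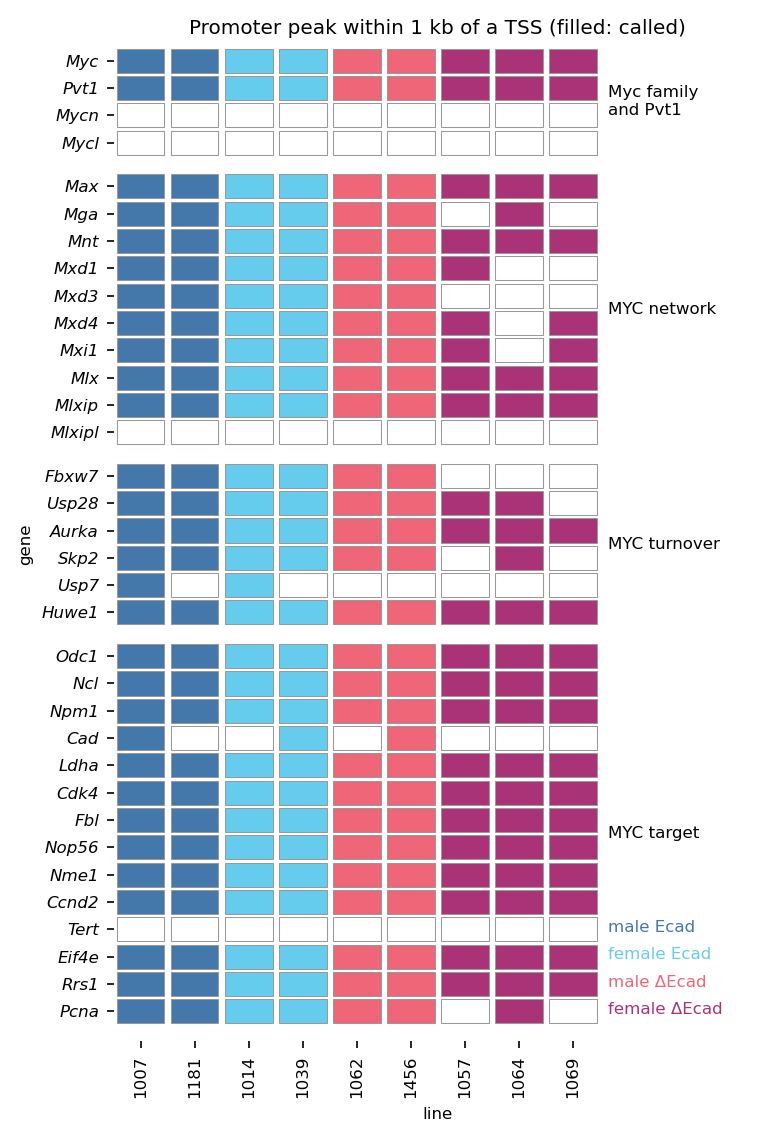
Promoter calls (filled squares, a peak within 1 kb of a TSS) of Myc, Pvt1, Mycn and Mycl and of the MYC network, turnover and target lists (rows) in the 9 lines (columns, coloured by group). Mycn and Mycl are empty in all lines, and Mxd3 and Fbxw7 only in the 3 female ΔEcad lines.

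The lists ranged from 20741 to 41663 peaks and from 29.5 to 67.2 Mb of cover. The Cdh1 promoter was called in 0 of 9 lists, the Ecad lines included, so it does not check the genotype labels. Promoters of the melanocyte lineage genes Sox10, Mitf, Dct, Tyr, Pmel and Mlana were called in 9 of 9 lists, and Tyrp1 in 6. Promoters of 3 keratinocyte, 2 immune and 2 endothelial genes were called in 0 lists, and of 3 fibroblast genes only Pdgfra was called, in Ma_1007.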

How the data were processed

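H3K27ac ChIP-seq lists of 9 mouse melanoma lines were used; the 4 input libraries were not analysed here. The authors aligned reads to GRCm38/mm10 with bowtie2 on Galaxy, and the submitters' processing notes name Bowtie2 2.4.5, MACS2 2.2.7.1 and deepTools 3.5.1.0.0. Peak-calling settings are not given in the sources used here. The deposited score, the fold enrichment (a ratio), the −log10 p and the −log10 q describe peaks within 1 list. The lowest deposited −log10 q was just above 5, a q-value of 1e-05. The depth reached in each library is unknown, since only a common target is stated, so no counting interval is given.

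Peaks were merged over the lists, and a list called a region with at least 1 bp. Gene models were GENCODE release M21. Covered kb was compared by exact two-sided permutation over lines, and calls by Fisher's exact test, over all windows, regions or promoters, with Benjamini-Hochberg adjustment. The percentile test was added after the data were seen. Functions were tested on simulated data. Named were the 4 genes, elements in all lists, with Fisher P under 0.05, in 1 whole group only, or among the 5 with the highest mean percentile, neighbours, the 3 most similar genes and the MYC lists; some of these genes are not reported here and are left out of the list counts. The +406 kb, Mycn and remaining Mycl elements were named after their values were seen. Members and lists were chosen with earlier results of these data known. Alternatives were list length, list strength, window size, scaling, distal part, overlap, TSS distance and each line left out. Python 3.11.15 with numpy 2.4.6, pandas 2.3.3 and scipy 1.17.1 was used.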

Additional observations from a re-analysis of the deposited data

Results flagged for a closer look

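Line Ma_1057 lay far from the other lines at Myc and Pvt1. At Myc its 97.5 kb left a gap to the next line of 0.728 of the whole range among the 5 ΔEcad lines and of 0.785 among the 5 female lines, above Dixon's limit of 0.71. At Pvt1 its 125 kb left a gap of 0.7102 of the range among ΔEcad lines, just above the limit, and of 0.823 among female lines. These are 4 of 16 sets of lines examined, all from the same line. Chance passes the limit in about 1 of 20 sets if the values are normally distributed, which was not checked. The lengths were not scaled to the length of the lists, so the 4 of 16 cannot be weighed against that rate. Genotype and sex sets share lines, as do the windows of Myc and Pvt1, so the 4 are not independent. Mycn and Mycl gave no such line.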

How the results depend on the processing

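The promoter calls of the 4 genes were the same in all 16 alternative counts. The covered length passed P = 0.05 in 2 alternatives, which were the stronger 50% of each list for Mycl by sex (-6.16 kb, exact P = 0.0317) and cover per covered Mb of chromosome 15 for Myc in female ΔEcad lines against the rest (15.0 kb per Mb, exact P = 0.0119). Direction turned for Mycl by genotype with 500 kb on each side (-0.0195 kb), for Myc by sex with 50 kb (-0.413 kb), and for Mycn with the stronger 50% by sex (0.0547 kb) and in female ΔEcad lines against the rest (0.633 kb), and per covered Mb of the list (0.00418 and 0.0139 kb per Mb). With 50 kb on each side Mycn had no peak and differences of 0. Leaving out each line in turn gave genotype differences from -6.01 to 12.7 kb at Myc, -9.96 to 19.4 kb at Pvt1, -0.693 to 0.924 kb at Mycn and 0.425 to 4.95 kb at Mycl. By sex they ran from -5.36 to 13.4 kb, -12.0 to 17.1 kb, -1.24 to 0.55 kb and -7.39 to -2.12 kb in the same order. Female ΔEcad lines against the rest gave -8.17 to 28.0 kb, -13.6 to 35.3 kb, -1.77 to 0.4928 kb and -7.10 to -1.89 kb. Left out, Ma_1057 turned the sign at Myc and Pvt1, Ma_1181 turned it at Pvt1 by genotype and sex, and Ma_1062 at Pvt1 by sex; signs at Mycn turned with several lines. The 1 element past Fisher's P of 0.05 by genotype became 0 without any line but Ma_1057, a range of 0 to 1, since fewer lists raise its P. By sex 1 element passed in place of 0 with lists of equal length and with the stronger 50%. Without Ma_1057 the Myc and Pvt1 windows held 49 elements in place of 69. The causes were not tested. No paired analysis was possible because the labels number no replicates that pair lines. Unknown depth limits every missing call.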
